A study of Homo sapiens with 9 samples.

Results

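The 9 genes described here are the core of the transforming growth factor-beta (TGF-β) pathway: the ligands TGFB1 and TGFB2, the receptors TGFBR1 and TGFBR2, the signal carriers SMAD2, SMAD3 and SMAD4, and the inhibitors SMAD7 and SKIL. They were chosen by name, by a rule that sets no limit on measured values. All 9 were found among the 19869 genes of the K94/171R table by Ensembl identifier and symbol. In the table of the other lines, the first table, which holds 24331 genes under assembly identifiers, a name was at hand for 1 of the 9, TGFB2.

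H460 is a line of human large cell lung cancer, labelled as carrying inactive RUNX3, a Runt-domain transcription factor. H460-ERT2-RUNX3 WT is a stable derivative with an inserted fusion of normal RUNX3, and H460-ERT2-RUNX3-MT(K94/171R), called K94/171R here, carries the same fusion with arginine in place of its named lysines. The fusion partner is ERT2, an estrogen receptor fragment that lets 4-hydroxytamoxifen (4-OHT) switch the protein on. All 3 lines, at passage 11, were starved of serum for 24 h and then given 10% serum with 1 μM 4-OHT, and 1 RNA-seq library was made from each line at 0, 8 and 16 h. H460 thus shares serum and drug with the lines that carry a fusion, and a change within any line holds the response to serum as well as that to the fusion. The sample titles call this control H460, whereas the study names H460-vec, obtained by stable transfection, as its RNA-seq control. Whether each derivative is 1 clone is not given in the sources used here.

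TGF-β ligands are secreted in a latent form bound to a propeptide. Once released, a ligand binds the type II receptor TGFBR2, which phosphorylates the type I receptor TGFBR1, and TGFBR1 phosphorylates SMAD2 and SMAD3, which enter the nucleus with SMAD4 and act on target genes. SMAD7, itself a target, blocks the receptors, and SKIL and its relative SKI hold SMAD complexes in a repressed state. In epithelial cells the pathway is known for growth arrest and for a shift towards a mesenchymal state, and RUNX proteins are known partners of SMADs.

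TGFB2 is the only member that could be identified in all 3 lines, and SMAD7 had the largest change of the 9 in K94/171R cells. Their promoters are given here as the 250 bases before a RefSeq start site, on the gene's strand. They were placed by exact match in GRCh37, the same assembly as the hg19 of the files. TGFB2 lies on the forward strand (chr1:218518428-218518677) and SMAD7 on the reverse strand (chr18:46477336-46477585, before the most upstream of its 3 RefSeq starts). Capitals mark the SMAD box CAGAC, the E-box CACGTG and the cAMP response element core TGACG, each searched on both strands.
TGFB2: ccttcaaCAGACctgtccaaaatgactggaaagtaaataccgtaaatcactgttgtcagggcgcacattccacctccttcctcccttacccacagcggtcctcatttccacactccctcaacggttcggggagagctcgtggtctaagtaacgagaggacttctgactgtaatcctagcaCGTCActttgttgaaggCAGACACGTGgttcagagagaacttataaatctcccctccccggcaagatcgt
SMAD7: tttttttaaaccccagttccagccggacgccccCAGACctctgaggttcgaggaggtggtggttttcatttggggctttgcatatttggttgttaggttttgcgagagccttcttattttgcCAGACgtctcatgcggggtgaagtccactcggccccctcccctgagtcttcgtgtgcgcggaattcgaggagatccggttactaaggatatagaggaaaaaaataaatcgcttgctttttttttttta
The TGFB2 window held a SMAD box 243 to 239 bases and another 53 to 49 bases before the start. An E-box at 49 to 44 bases shared 1 base with the nearer SMAD box, and the cAMP response core stood 70 to 66 bases before the start, on the opposite strand. The SMAD7 window held SMAD boxes at 217 to 213 and 128 to 124 bases. These are common short words. Over all 35116 RefSeq promoter windows (GRCh38.p14, 250 bases before to 50 after each start), 45.3% held a SMAD box, and 11 of the 24 windows of the 9 genes did. The E-box was in 7.26% of all windows and, of the 9 genes, in those of TGFB2 and SMAD3. A RUNX site, searched as TGTGGT or TGCGGT on both strands, was in 19.6% of all windows and in 5 of the 24. Those 5 belong to SMAD3, SMAD4, SMAD7 and TGFBR1. The SMAD7 match lies outside the 250 bases printed above. AP-1 sites, TGANTCA, were in 7.71% of windows, among them windows of SMAD3 and TGFBR2. No match was found in the TGFB2 window for the RUNX or AP-1 letters, which says only that these letters are not in this window.

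Expression is in FPKM, fragments scaled to transcript length and to library size, which can be compared between genes because it is per length. The deposited values already lay near a common median, while the FPKM sums of the libraries differed. Rescaling by the median ratio over genes moved changes in H460-ERT2-RUNX3 WT by only -0.02 at 8 h and -0.004 at 16 h. A change is the log2 of the ratio of FPKM to that at 0 h in the same line, after 0.05 was added to both. With 1 library per condition there is no replicate error and no test, so "rose" and "fell" are used only of changes of at least 1, a doubling or halving, in genes with an FPKM of at least 1 at either time. The tables were normalized separately, and every change was taken within a table.

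The library of H460-ERT2-RUNX3 WT at 16 h stood apart from the rest. Its FPKM summed to 780952 against 554359 to 641519 in the other 8, its 50 most abundant genes took 32.2% of the sum against 24.9% to 28.4%, and 41.5% of genes changed by at least 1 from 0 h. For comparison, 8.2% of genes did so in this line at 8 h, 2.02% and 3.17% in H460 at 8 and 16 h, and 3.76% and 2.74% in K94/171R. Depth is not known from FPKM. In the first table, steps between low values put the factors that divided reads at 0.964 to 1.17 times that of H460 at 0 h. For the K94/171R libraries at 8 and 16 h they were 1.03 and 0.986 times that at 0 h. Such a factor need not equal the depth, so no depth is read from these values. In K94/171R, the keratins KRT8, KRT18 and KRT19, all epithelial, were at 309 to 698 FPKM, whereas EPCAM reached 0.313 and CDH1 0.0227. The 4 fibroblast markers summed to 5.60 to 8.33 FPKM, nearly all of it COL3A1, with LUM and PDGFRA at 0. The endothelial and blood cell markers summed to at most 0.0409, with CDH5, CD3E and HBB at 0. RUNX3 itself was at 2.12, 0.712 and 2.11 FPKM in K94/171R at 0, 8 and 16 h. It had no name in the first table, and these values cannot separate the fusion from the native gene, so the labels were not checked by them.

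TGFB2 fell in the line with normal RUNX3 and not in the others. TGFB2 encodes a secreted TGF-β ligand. In H460-ERT2-RUNX3 WT it was at 16.0 FPKM at the start, at 6.28 after 8 h of serum and 4-OHT and at 3.58 after 16 h. In H460 it was at 11.9, 8.33 and 11.2 FPKM. In K94/171R it was at 23.0, 19.2 and 27.2 FPKM, in a table of its own, so that this level cannot be set beside the others. The decline in the WT line ran through both times, whereas H460 and K94/171R had their lowest value at 8 h and were back near the start at 16 h.

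**Figure D1:**
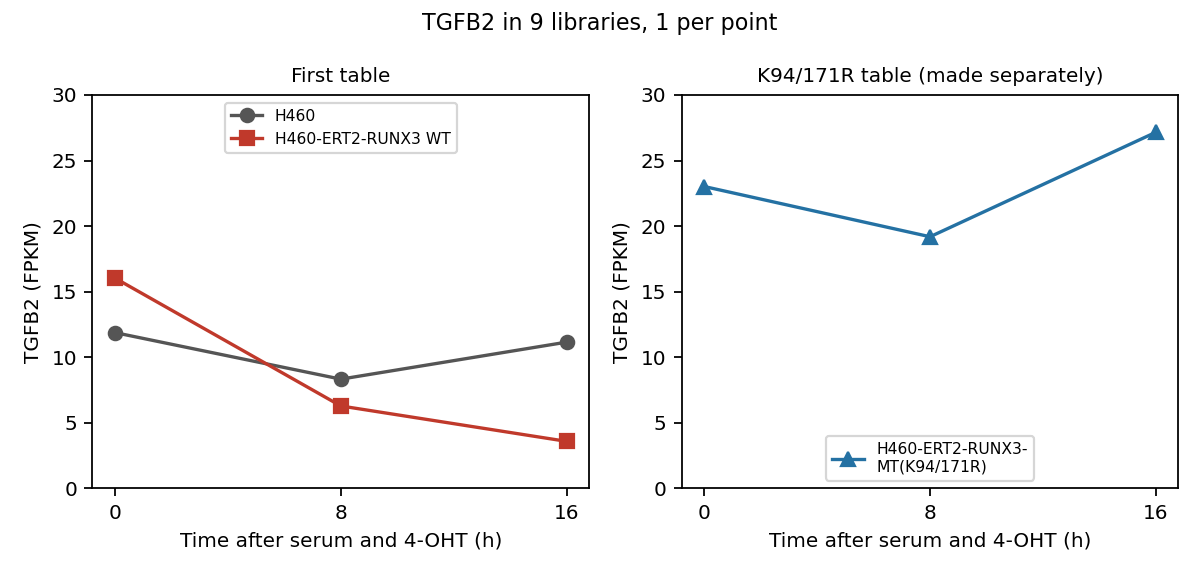
TGFB2 level (FPKM, from 0) against time after serum and 4-OHT (h), with 1 library per point; H460 and H460-ERT2-RUNX3 WT are in the left panel and K94/171R, from its own table, in the right. The WT line goes from 16.0 to 3.58 FPKM, and the other lines end at 11.2 and 27.2, near where they began.

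The log2 change of TGFB2 in the WT line was -1.34 at 8 h and -2.15 at 16 h, so that 39.2% and 22.4% of the level at 0 h remained. In H460 it was -0.51 and -0.09, and in K94/171R -0.26 and 0.24. All 3 lines were below their start at 8 h. Between 8 and 16 h, TGFB2 went lower in the WT line, by a log2 value of -0.80, and higher in H460 by 0.42 and in K94/171R by 0.50. The WT and H460 changes differed by -0.83 at 8 h and by -2.05 at 16 h. These differences rest on 4 libraries each, and none could be tested.

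The order of WT and H460 turned over with time. At 0 h, before serum and 4-OHT, TGFB2 was higher in the WT line than in H460 by a log2 value of 0.43. It was lower by -0.40 at 8 h and by -1.62 at 16 h. The start was thus not equal, and the difference at 16 h was smaller when levels were compared than when changes were. In bulk samples, fewer cells that express a gene and less of its RNA per cell cannot be told apart.

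Against the rest of the transcriptome, the fall of TGFB2 was among the larger ones at 8 h and less so at 16 h. At 8 h, 212 of 11555 genes of the WT line (1.83%) fell as far or farther, and 3.79% of genes fell by at least 1. At 16 h, 731 of 11930 genes (6.13%) fell as far, and 20.9% fell by at least 1. At 16 h, therefore, the TGFB2 value lies among a broad change over much of that library, whose part in it was not tested. The value at 8 h does not use that library. For the difference from H460, 863 of 11851 genes (7.28%) were as low at 8 h and 1020 of 12273 (8.31%) at 16 h.

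The TGFB2 locus of the first table (chr1:218517538-218617961, hg19) is larger than the gene. It takes in TGFB2-AS1 (chr1:218517532-218519378), an antisense RNA on the reverse strand, but for its last bases, and TGFB2-OT1 (chr1:218615968-218617338) within the end of the gene. Whether counting used the strand is not given in the sources used here, so reads of the antisense RNA cannot be told apart from those of TGFB2. Neither RNA was found by its symbol in the K94/171R table.

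TGFB2 was compared with 530 genes named in both tables that reached an FPKM of 1 in each table. The nearest to it by Euclidean distance over the 6 changes were CENPF, RCAN3 and CDCA8. Their distances were 0.56, 0.60 and 0.68, against a median distance of 2.62. The list that names genes of the first table covers chromosome 1 only, so genes of other chromosomes were not compared. CENPF was at 62.9, 34.5 and 13.7 FPKM in the WT line, at 69.9, 50.4 and 58.6 in H460 and at 33.4, 28.0 and 46.0 in K94/171R. RCAN3 was at 11.4, 6.43 and 2.65 FPKM in the WT line. CDCA8 was at 23.0, 12.8 and 5.88 in the WT line. The 3 genes were picked by these same changes, so their closeness to TGFB2 was set by the choice. At 16 h in the WT line they changed by -2.19, -2.08 and -1.96. At 8 h their changes, -0.86, -0.82 and -0.84, were smaller in size than the -1.34 of TGFB2.

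In K94/171R cells all 9 genes could be followed, and their levels spanned from below 1 to above 45 FPKM. TGFBR1, SMAD2 and SMAD3 were the most abundant, with medians over the 3 times of 41.9, 36.3 and 33.2 FPKM and ranges that overlapped. TGFB2 and TGFB1 followed, at 23.0 and 17.3, again with overlapping ranges. SMAD4 and TGFBR2, at 9.01 and 6.68, also overlapped. SKIL at 2.31 and SMAD7 at 0.670 came last, each below the range of the gene before it.

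**Figure D2:**
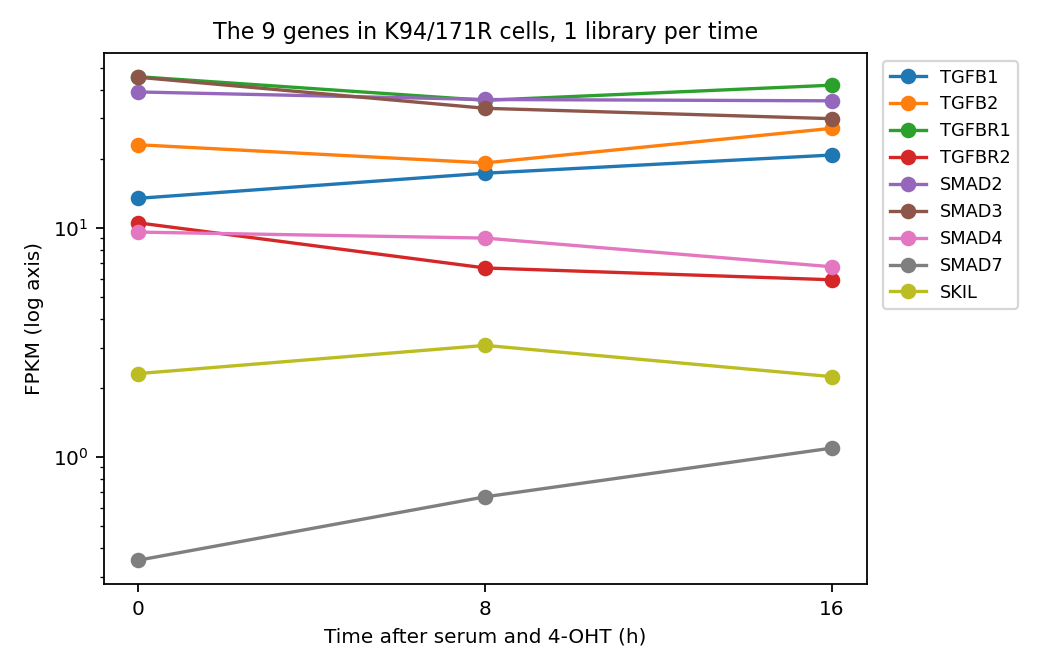
Level of the 9 genes (FPKM, log axis) in K94/171R cells against time after serum and 4-OHT (h), with 1 library per point. TGFBR1, SMAD2 and SMAD3 lie at the top, at 29.9 to 45.6 FPKM, and SMAD7 at the bottom, where it goes from 0.354 to 1.09.

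The counts of the 9 genes that changed by at least 1 in K94/171R do not set them apart from all genes. At 8 h, none of the 8 that reached an FPKM of 1 did so (0 of 8, where 3.76% of all genes did), a count near the background. At 16 h, 1 of the 9 did, SMAD7 (where 2.74% of all genes did). SMAD7 reached an FPKM of 1 only in the library where it was highest, so its place among the genes counted rests on the same value as its change, and nothing is read from this count. None reached 2, the threshold that the study used, past which lay 0.613% of genes at 8 h and 0.512% at 16 h. The median change over the 8 genes was -0.19 at 8 h, with 2 higher and 6 lower, and over the 9 it was -0.12 at 16 h, with 3 higher and 6 lower. Over all genes it was 0.01 at 8 h and -0.01 at 16 h. The 9 genes were followed with no control line in the same table, so their changes hold the response to serum as well.

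**Figure D3:**
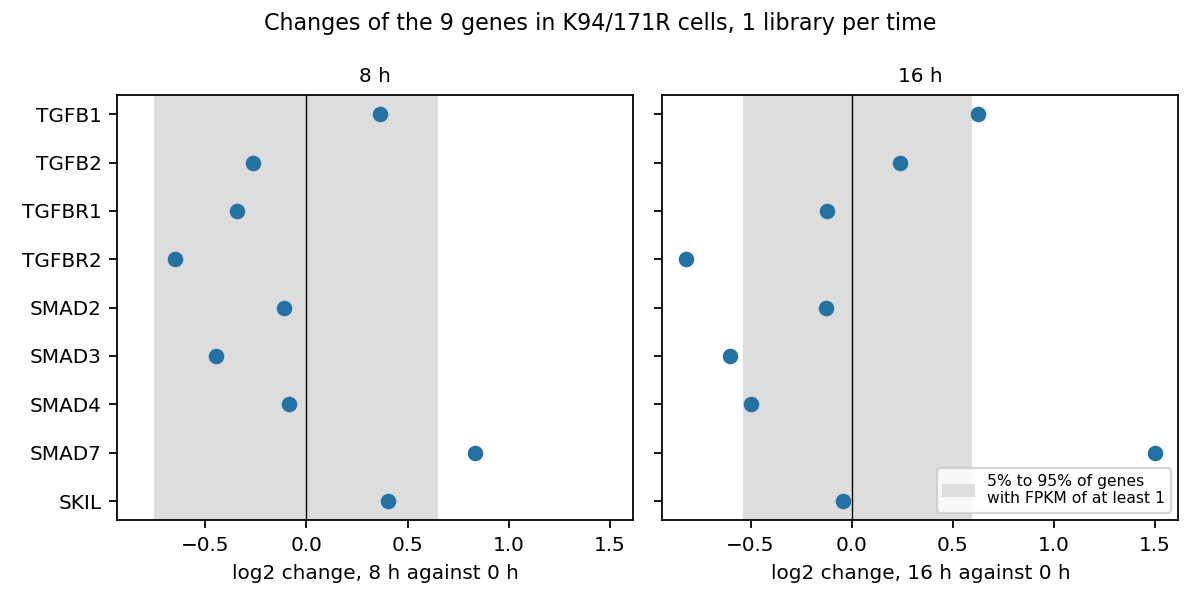
The log2 change of each of the 9 genes in K94/171R cells at 8 h (left) and 16 h (right) against 0 h, each point from 1 library per time, with grey bands from the 5th to the 95th percentile of genes with an FPKM of at least 1. At 16 h SMAD7 (1.50) and TGFB1 (0.63) lie above the band, TGFBR2 (-0.82) and SMAD3 (-0.60) below it.

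Of the ligands, TGFB1, the most widely expressed of the family, was at 13.4, 17.3 and 20.8 FPKM at 0, 8 and 16 h, highest at the last time. Its changes were 0.36 and 0.63, and 4.44% of genes were as high at 16 h. TGFB2 stood above TGFB1 in every K94/171R library, by ratios of 1.71, 1.11 and 1.31. TGFB3, the remaining ligand, was low, at 2.28, 2.03 and 2.68 FPKM. The 3 ligands together came to 38.5 to 50.6 FPKM.

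The receptors differed in level and in course. TGFBR2, which binds ligand first, was at 10.5, 6.68 and 5.93 FPKM, lower at each later time, with changes of -0.65 and -0.82. At 16 h, 2% of genes were as low. TGFBR1, the kinase that acts on SMADs, was at 45.6, 36.0 and 41.9 FPKM, with changes of -0.34 and -0.12. The ratio of TGFBR1 to TGFBR2 FPKM accordingly was 4.34, 5.39 and 7.06 at the 3 times. TGFBR3 (betaglycan), a co-receptor that presents TGFB2 to TGFBR2, fell at 8 h, by 1.04 on the log2 scale, from 6.90 to 3.34 FPKM. This was close to the limit, since the change was -0.86 with 1 added to the FPKM and just short of 1 in size with libraries rescaled to equal FPKM sums. TGFBR3 was at 7.89 at 16 h. ENG, another co-receptor, was at 26.9 to 30.9 FPKM.

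The receptors of activins and BMPs, relatives of the TGF-β receptors, did not change by at least 1 at any level above an FPKM of 1. ACVR1 was the most abundant of them, at 13.9 to 16.8 FPKM. ACVR1B was at 5.54 to 5.70 FPKM, BMPR2 at 5.24 to 5.63 and BMPR1A at 4.29 to 5.16, all nearly level. ACVR2A was at 1.88, 1.58 and 1.25 FPKM and ACVR2B at 1.21, 0.755 and 0.849, both highest at 0 h. BMPR1B reached 0.707 and ACVR1C 0.0953, and ACVRL1 was listed at 0.

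The SMADs that carry the signal were lower at both later times than at 0 h, none by as much as a halving. SMAD3, which binds the SMAD box directly, was at 45.4, 33.2 and 29.9 FPKM, with changes of -0.45 and -0.60, and 3.85% of genes were as low at 16 h. SMAD2, its close relative, was nearly level at 39.1, 36.3 and 35.8 FPKM, with changes of -0.11 and -0.13. SMAD3 was above SMAD2 at 0 h, by a ratio of 1.16, and below it at 8 and 16 h, at 0.915 and 0.836. SMAD4, the partner that both share, was at 9.57, 9.01 and 6.76 FPKM, with changes of -0.09 and -0.50, so that it was nearly level at 8 h and lower at 16 h. SMAD4 was the least abundant of the 3, with 4.09, 4.02 and 5.30 times as much SMAD2 by FPKM. The SMADs of the bone morphogenetic protein (BMP) branch were SMAD5, at 22.1, 16.9 and 21.4 FPKM, SMAD1, at 4.82, 5.66 and 4.73, and SMAD9, below 0.6 throughout.

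The inhibitors moved by different courses. SMAD7 was at 0.354, 0.670 and 1.09 FPKM, higher at each later time, and rose at 16 h, with a change of 1.50, while its change at 8 h was 0.83 at levels below an FPKM of 1. SMAD7 was the least abundant of the 9 genes at every time, and its change at 16 h was 0.63 with 1 added to the FPKM in place of 0.05. SMAD6, the inhibitory SMAD of the BMP branch, rose at 8 h, from 1.62 to 3.53 FPKM (1.10, or 0.79 with 1 added to the FPKM), and was back at 1.75 at 16 h. SKIL, an inducible repressor of SMAD complexes, was at 2.31, 3.07 and 2.24 FPKM, highest at 8 h, with changes of 0.40 and -0.04. Its relative SKI was at 9.83, 10.3 and 10.7, and was thus 3.36 to 4.78 times as abundant as SKIL by FPKM.

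SKI, unlike SKIL, was also named in the first table. It was at 9.58, 6.90 and 6.73 FPKM in the WT line and at 8.00, 8.88 and 7.75 in H460. Its changes in the WT line were -0.47 and -0.51, within what many genes showed, since 15.8% were as low at 8 h and 33.7% at 16 h. ZFYVE9 (SARA), which brings SMAD2 and SMAD3 to the receptors, was at 4.15, 5.09 and 5.46 FPKM in the WT line, at 3.74, 3.44 and 4.04 in H460, and in K94/171R at 3.24 and 3.32 at the later times. BMP8A was at or below 0.0944 in all 9 libraries.

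The other genes of the pathway were 101, written from general knowledge with earlier results of these data known. All were found in the K94/171R table, and 71 reached an FPKM of 1 at either time. At 8 h 5 of the 71 rose and 3 fell, where 1.27% of all genes rose and 2.49% fell. At 16 h 4 rose and none fell, where 1.47% of all genes rose and 1.27% fell, so that a count of 0 among 71 is near the background. Their median change was -0.09 at 8 h and 0.00 at 16 h. The genes that rose were mostly the ID genes, inhibitors of DNA binding that BMP signals are known to induce. ID1 was at 13.3, 80.6 and 33.8 FPKM (2.59 and 1.34), ID2 at 5.33, 22.4 and 18.6 (2.06 and 1.79) and ID3 at 30.4, 211 and 111 (2.79 and 1.86). At 8 h, 8 of 11252 genes were as high as ID3, counting ID3 itself.

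**Figure D4:**
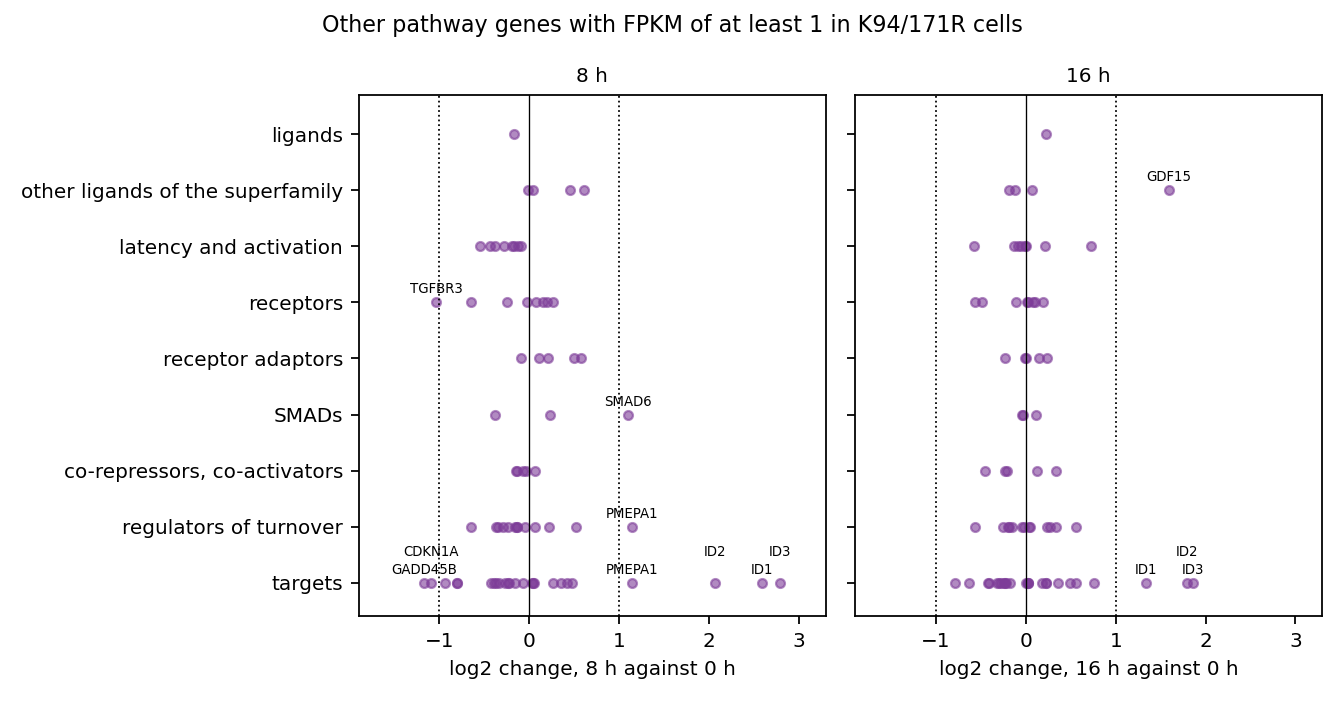
The log2 change at 8 h (left) and 16 h (right) against 0 h of each other pathway gene with an FPKM of at least 1 in K94/171R cells, by list, with 1 library per time and dotted lines at -1 and 1; the genes past the lines are named, and PMEPA1 stands in the lists of turnover and of targets. ID3 lies farthest to the right at both times, at 2.79 and 1.86, with GDF15 (1.59) between ID2 and ID1 at 16 h.

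Targets of TGF-β went both ways at 8 h, when 12 of the 26 with an FPKM of at least 1 were higher than at 0 h and 14 lower. CDKN1A, GADD45B and CCN2 had their lowest level at 8 h, whereas the ID genes and PMEPA1 had their highest. CDKN1A, a brake on cyclin-dependent kinases, fell from 146 to 68.5 FPKM at 8 h (-1.09) and was at 247 at 16 h (0.76). GADD45B, a stress-response protein, fell from 16.0 to 7.07 FPKM (-1.17) and was at 13.0 at 16 h. CCN2, a matricellular protein, was at 73.5, 38.2 and 55.3 FPKM, with a change of -0.94 at 8 h. TGFBI, a secreted matrix protein, was level at 1258 to 1292 FPKM. PMEPA1, which restrains TGF-β receptor signalling, rose at 8 h, from 1.12 to 2.52 FPKM (1.14, or 0.73 with 1 added to the FPKM), and was at 1.68 at 16 h. Of all 33 targets, 26 reached an FPKM of 1 at 8 h, and of these 4 rose and 2 fell, where 1.27% and 2.49% of all genes did. At 16 h 27 did, and 4 rose, the ID genes and SMAD7, and 0 fell, where 1.47% and 1.27% of all genes did. SMAD7 is counted only through the same value that makes it rise, so nothing is read from its place here. A count of 0 that fell is near the background. The list does not part targets that TGF-β raises from those that it lowers, so its counts give no measure of pathway activity.

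In the other groups, GDF15, a distant member of the ligand family, rose at 16 h, from 63.8 to 192 FPKM (1.59). GDF11, BMP6 and BMP8B were the other ligands of the superfamily that reached an FPKM of 1, at 1.49 to 3.14, and none of them changed by 1. INHA, INHBA, INHBB, MSTN, BMP2, BMP7, BMP8A and LEFTY2 stayed below 1, and NODAL, LEFTY1 and BMP4 were listed at 0. None of the 8 expressed genes of latency and activation changed by at least 1 at either time, a count near the background of 3.76% and 2.74% of all genes. Their changes at 8 h were all below 0, from -0.55 in FBN1, a microfibril protein that binds latent complexes, to -0.09 in ITGB1. Many genes were as low, 8.96% of them for FBN1 and 38.4% for ITGB1. At 16 h, 2 of the 8 were higher than at 0 h and 6 lower. None of the 5 expressed receptor adaptors changed by at least 1 either, which is again near the background. Of the 13 genes of receptor and SMAD turnover, all expressed, only PMEPA1 passed 1, at 8 h, and the ubiquitin ligase NEDD4L had the lowest change, -0.64.

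Of the 33 targets, only 2 were named in the first table as well, so they do not stand for the rest. Both changed by at least 1 in the WT line at 8 and 16 h, where 8.2% and 41.5% of all genes did. ATF3, a stress-induced transcription factor, rose from 2.95 to 46.2 and 235 FPKM in the WT line, with changes of 3.94 and 6.29. It was at 1.52, 1.69 and 4.13 in H460 and at 2.41, 1.85 and 1.37 in K94/171R. CCN1 (named CYR61 there), a matricellular protein, fell from 33.5 to 4.01 and 5.00 FPKM in the WT line, with changes of -3.05 and -2.73, and was at 16.4, 17.5 and 16.8 in H460 and at 30.3, 22.6 and 19.6 in K94/171R. CCN1 in the WT line thus fell with TGFB2, but had its lowest value already at 8 h, where TGFB2 went on to 16 h.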

How the data were processed

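RNA of 9 libraries was made into stranded mRNA libraries (TruSeq), sequenced on a NextSeq500, trimmed with Cutadapt and mapped to hg19 by STAR 2.5.0, and quantified with Cufflinks and Cuffdiff 2.2.1 (versions from the submitters' processing notes). The gene annotation and the strand setting are not given in the sources used here. FPKM per gene, as deposited by the authors, came in 2 separately made tables, 1 of H460 and H460-ERT2-RUNX3 WT and 1 of K94/171R. Identifiers of the K94/171R table matched a symbol for 19494 of 19869 genes. Those of the other table were named for 1144 of 24331 through a supplementary list of the study, which covers genes of chromosome 1 only.

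Changes were computed with Python 3.11.15, numpy 2.4.6 and pandas 2.3.3, with a pseudocount of 0.05 FPKM and a minimum of 1 FPKM at either time. The code was tested on simulated data with known answers. With 1 library per condition no p-value was computed, and depth is unknown, so no counting interval is given. FPKM takes out library size, so each value is relative to the scale given to its library. That scale lay near a common median of genes and not at a common FPKM sum. The named genes are all members, the listed genes that have a symbol in the first table, the other ligands, receptors and SMADs, those past 1 in each list (up to 4), the nearest 3 to TGFB2 and the markers. CCN2, TGFBI, FBN1, ITGB1 and NEDD4L were added after their values were seen. Members and lists were chosen with earlier results of these data known. Alternatives were other pseudocounts, rescaling and thresholds.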

Additional observations from a re-analysis of the deposited data

Results flagged for a closer look

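These genes had log2 changes of opposite sign in different lines at the same time, with a size of at least 1 in one of them. The values under 1, among them those of CCN1 in H460, are small and are given as values only. With 1 library per condition, none of these differences was tested, and K94/171R is in a table of its own. TGFB2 at 16 h was -2.15 in the WT line and 0.24 in K94/171R on the log2 scale. ATF3 at 8 h was 3.94 in the WT line and -0.37 in K94/171R. At 16 h ATF3 was 6.29 in the WT line, 1.41 in H460 and -0.79 in K94/171R. CCN1 at 8 h was -3.05 in the WT line and 0.10 in H460, and at 16 h -2.73 and 0.03.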

How the results depend on the processing

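TGFB2 kept its direction in the WT line, and in the WT line less H460, with pseudocounts of 0.01 and 1 FPKM. It did so with both rescalings too, and none of these moved it by 1.5 times. The rescaling by the median ratio could hardly move it, since the deposited values already lay near that scale. Nothing is read from that rescaling. Rescaling to equal FPKM sums moved all WT changes by -0.18 at 8 h and -0.49 at 16 h and those of H460 at 16 h by -0.11, and gave -1.52 and -2.63 for TGFB2. With H460 at the same time as reference, added after the data were seen, the value at 8 h was -0.40. The counts of genes moved more. With a threshold of 2, 0 members passed at 16 h and 3 and 0 other pathway genes at 8 and 16 h. With 0.5, 2 and 4 members passed at 8 and 16 h, and 18 and 12 other genes. With a pseudocount of 1, 0 members passed at 16 h and 5 other genes at 8 h, with SMAD6, PMEPA1 and TGFBR3 lost. Without a minimum FPKM, 13 other genes passed at 16 h. Of the 9 members in K94/171R, the direction turned for SKIL alone, at 16 h, with equal FPKM sums (-0.04 to 0.05). In all, 33 of the recomputed values stayed close and 11 moved, and the 33 include those rescaled by the median ratio. Depth is unknown, and the pseudocount moves low values such as those of SMAD7. No paired analysis was possible because there is 1 library per condition and the labels give no replicate numbers.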
